A study of Homo sapiens with 6 samples.

Results

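A closed triangle of loops is a set of 3 genome positions A, B and C, in order along a chromosome, in which each position is joined to both others by a called chromatin loop. Triangles were taken from the loop list of HAP1 cells: anchors sharing at least 1 bp were joined into one, and every set of 3 merged anchors with the loops A-B, B-C and A-C in the list was kept. The list gave 5826 triangles among 46849 loops. Their sides were 12986 different loops, 27.7% of the list (exact 95% interval 27.3 to 28.1%), and their corners were 9597 of the 47497 merged anchors (20.2%). A corner needs at least 2 loops, and the corners were 44.0% of the 21820 anchors with 2 or more. The triangles were chosen by the loop calls, and so by the contact counts behind them, and the values below therefore describe the list and carry no test.

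HAP1, a human line with a chronic myeloid leukaemia origin, is near-haploid in culture, and the cells used here had been sorted as diploid by a Hoechst DNA stain. The only group is HAP1 with 6 Micro-C replicates and no genotype or treatment named, and the submitters' notes name the hg19 genome build. Micro-C ligates chromatin cut to nucleosomes by micrococcal nuclease and counts which pieces were joined. The replicates are not told apart in the loop list, so no spread between them can be given, and nothing says whether they came from separate cultures. Over the whole list a loop had a median of 31 observed contacts, and 15.2% of loops had been called with anchors of 10 kb, the others with 5 kb.

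Loops in mammalian cells are thought to form largely as cohesin complexes extrude chromatin until they meet CTCF bound at the anchors. Contacts between promoters and enhancers also appear as loops in such maps. An A-C loop that passes over B can arise where extrusion goes on past B in some cells. It can also come from several sites that gather at one place. A contact map counts pairs of sites over many cells, so it does not tell whether A, B and C meet in the same cell or in different cells.

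Of the 46849 loops, 7803 were only a leg (the shorter loops A-B or B-C), 3781 were only the outer A-C loop, and 1402 were a leg of one triangle and the A-C loop of another. Most loops in triangles were in exactly 1 of them (9487 loops, 73.1%), and the most used loop was in 7. The 5826 triangles rested on 5183 different A-C loops. Of these, 4612 passed over 1 middle anchor, 508 over 2, 55 over 3 and 8 over 4 or more, up to 5. Among the corners, 2763 anchors were always the lower end A, 2306 always the middle B and 2724 always the upper end C. The other 1804 held more than 1 of these places, and 248 held all 3.

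The number of triangles followed how strictly a shared anchor was read. All 3 corners were identical bins in 3823 triangles (65.6%), and at no corner were they identical in 62. When touching anchors, or anchors up to 5 kb apart, counted as the same, there were 11799 triangles and 48.4% of loops were in one. With loops of 5 kb anchors alone there were 3808, with loops of 10 kb anchors alone 15, and with all 4 q-values at most 0.1 there were 3785. Sides of mixed width made up 26.3% of triangles, and 73.5% (4281) had 5 kb anchors on every side. That is more than the 3808 from 5 kb loops alone, because a 10 kb anchor of another loop can join neighbouring 5 kb bins into one corner.

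Most triangles spanned less than 1 Mb, with 453 above it. The A-C loop spanned a median of 360 kb (95% interval of the median 355 to 375 kb, quartiles 205 and 605 kb), with extremes of 65 kb and 3480 kb. Each leg spanned a median of 150 kb. The middle anchor sat at a median of 50% of the way from A to C, with quartiles at 32.8% and 67.0%, and it lay between 25 and 50% of the way in 33.8% of triangles and between 50 and 75% in 35.2%. The longer leg was a median of 2.04 times the shorter. In 1223 triangles (21.0%) a leg was at most 50 kb, close to the shortest loop of the list at 35 kb. Only 17 triangles had an A-C loop of 2 Mb or more, and 0 spanned a gap of 3 Mb or more without anchors.

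Loops of middle length were the ones most often in triangles. Of loops under 100 kb, 19.8% were in a triangle, and only 1.57% were an A-C loop, which needs room for a pair of legs. The share in a triangle was 31.9% between 100 and 200 kb, 32.8% from there to 500 kb, 32.9% from 500 kb up to 1 Mb and 29.6% from 1 Mb up to 2 Mb. At 2 Mb and over it was 9.96% (exact 95% interval 6.42 to 14.6%, 231 loops). The share that served as an A-C loop was higher in each longer class up to 22.9% for loops of 1 to 2 Mb, and was 7.36% at 2 Mb and over.

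Loop strength was read as observed over expected contacts, the expectation being the one the loop caller computes from the donut-shaped surroundings of the loop's pixel. The A-C loop had a median strength of 5.16 (quartiles 3.76 and 7.45), against 4.02 for A-B and 4.02 for B-C. Within a triangle the A-C loop was a median of 1.23 times as strong as the geometric mean of its legs (95% interval of the median 1.21 to 1.24), or 0.29 on the log2 scale. It was the strongest side in 2830 triangles (48.6%), the weakest in 996 (17.1%) and between the legs or tied in 2000. Anchor width moves this: where every side had 5 kb anchors, the A-C loop was the weakest side in 12.0%.

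The same sides read by raw contacts gave the other order. The A-C loop had a median of 31 observed contacts, against 40 for A-B and 40 for B-C, and a median of 0.767 times the mean of its legs. By count it was the weakest side in 45.7% of triangles and the strongest in 18.2%. Its donut expectation was a median of 6.15 contacts, against 10.1 for either leg, and stood at 0.613 times the mean of the legs. Over the longer distance both were lower, the expectation by the larger factor. These comparisons rank sides called with 5 kb and with 10 kb anchors together, and such counts are not on the same footing. Anchors were 10 kb wide for 13.3% of A-C sides, against 8.91% of A-B and 9.17% of B-C. Sides of mixed width made up 26.3% of triangles. The order by count was not computed for triangles of equal width alone.

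Since longer loops in this list have higher ratios, each loop was also set against the median of loops of like span and anchor width. On this scale (log2) the A-C loops stood at a median of 0.07, A-B at 0.11, B-C at 0.11 and loops in no triangle at -0.03. The A-C loop was then a median of 0.08 below the mean of its legs (value -0.08, quartiles -0.42 and 0.28). It was the weakest side in 35.0% of triangles and the strongest in 28.2%. The share of A-C loops above the median of like span was 55.2%, against 50.0% of all loops, and that of legs was 59.5% for A-B and 59.5% for B-C. The A-C value changed sign when loops under 20 contacts were left out, with a median of -0.0013, and was 0.0030 with all 4 q-values at most 0.1.

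**Figure D1:**
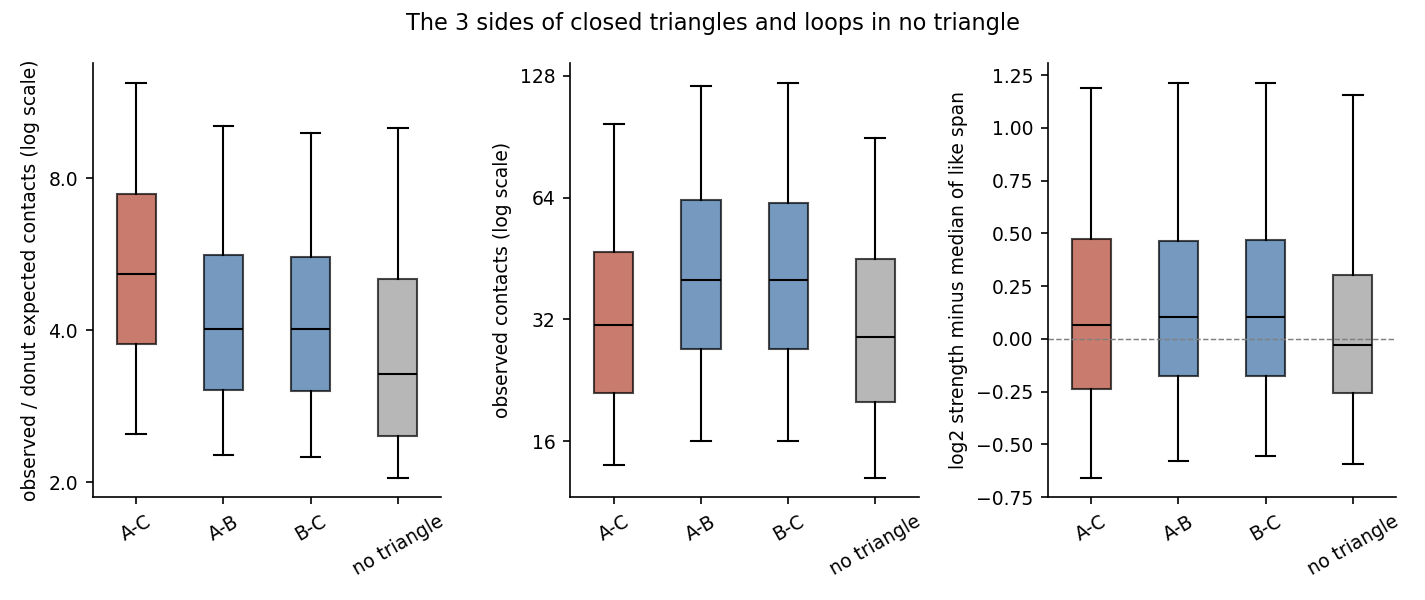
Strength, observed contacts and span-adjusted strength (vertical axes) of the A-C, A-B and B-C sides of 5826 triangles and of 33863 loops in no triangle. Loops called with 5 kb and with 10 kb anchors are pooled, and their contacts are not on the same footing. Boxes give median and quartiles and whiskers the range from 5 to 95%; the A-C side is highest by ratio (median 5.16), lower than its legs by contacts (31 against 40 and 40), and close to them once span is allowed for.

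Within broad classes of length, A-C loops had higher medians than loops in no triangle up to 2 Mb. The classes match neither length within the class nor anchor width. Under 100 kb, A-C loops began at 65 kb and loops in no triangle at 35 kb, and longer loops have higher ratios. The gap on the span-adjusted log2 scale given above was small (0.07 against -0.03). Under 100 kb the median strength was 3.50 for A-C loops against 2.54 for loops in no triangle. It was 4.15 against 3.60 between 100 and 200 kb, and 5.08 against 4.27 from there up to 500 kb. From 500 kb to 1 Mb it was 5.98 for A-C loops against 4.81 for loops in no triangle, and above that, up to 2 Mb, 7.03 against 5.87. At 2 Mb and over the order turned, with 6.53 for 17 A-C loops against 9.96. Contact counts were higher for A-C loops in every class: at 200 to 500 kb A-C loops had a median of 32 contacts, against 25 for loops in no triangle. At 2 Mb and over, where A-C strength was lower, the counts were 16 for A-C loops against 15. The part of contact counts in the differences in strength was not tested.

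A chain is a pair of loops A-B and B-C that share the middle anchor, whether or not A-C was called. The list held 30717 chains, of which 5826 were closed (19.0%, exact 95% interval 18.5 to 19.4%) and 24891 were open. Closure was much alike when the missing side was a leg. Of 31819 pairs of loops that share the lower anchor A, 18.3% were closed by a B-C loop, and of 32729 pairs that share the upper anchor C, 17.8% were closed by an A-B loop. These intervals cover counting error only, and since chains share loops they are too narrow.

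Closure was lower over long distances from A to C. It was 25.8% for chains under 100 kb (281 of 1091), 19.7% for those between 100 and 200 kb and 22.0% for those up to 500 kb. It was 17.5% from 500 kb up to 1 Mb, 12.2% from 1 Mb up to 2 Mb and 3.09% (17 of 550, interval 1.81 to 4.90%) beyond. Closed chains had a median distance of 360 kb from A to C, against 437.5 kb for open chains. The expectation that a loop must exceed also falls with distance. The median donut expectation of all loops was 5.89 contacts at 200 to 500 kb and 2.80 at 1 to 2 Mb, while no listed loop had fewer than 8 contacts. An absent A-C loop therefore means that none was called at this depth, not that A and C did not meet.

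**Figure D2:**
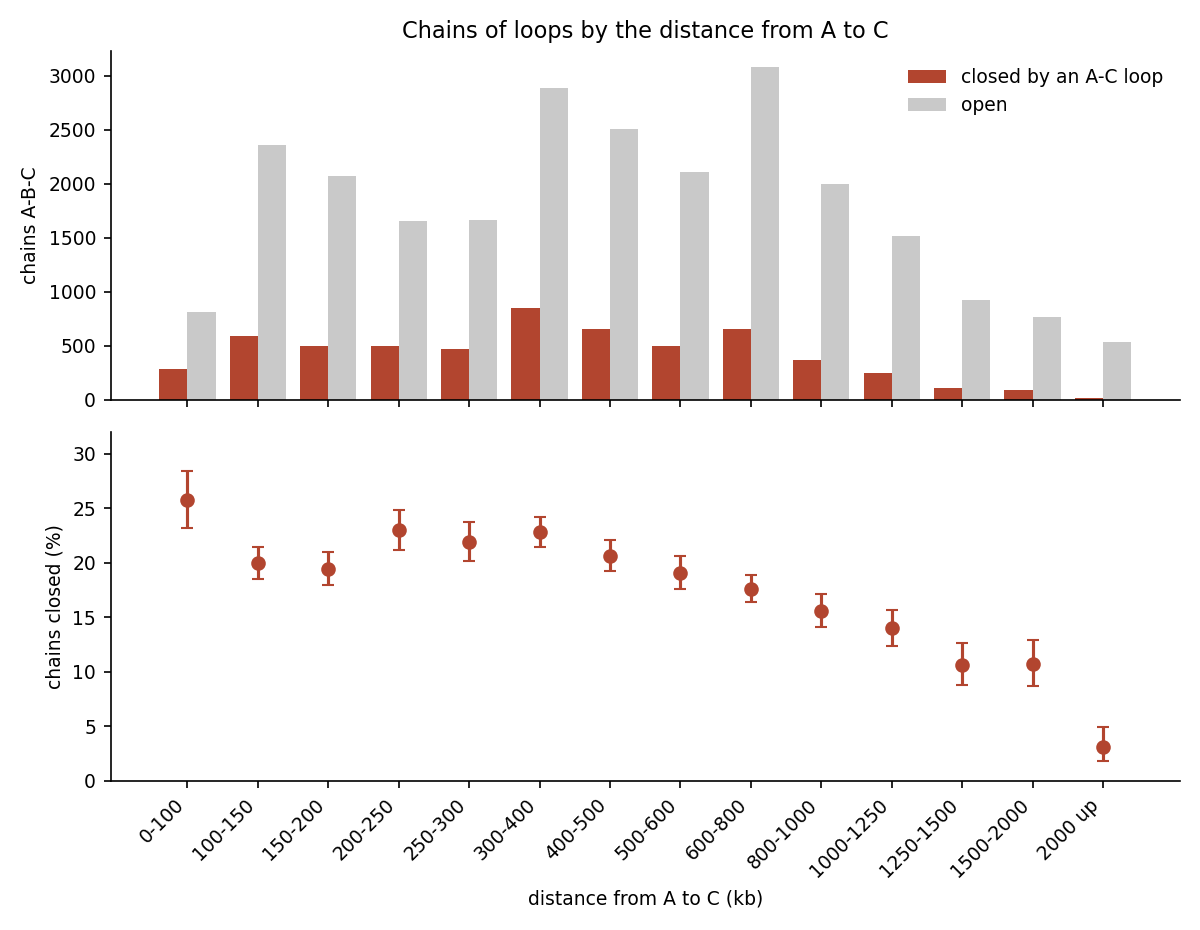
Top, number of closed and open chains by the distance from A to C (kb, classes of unequal width). Bottom, percent of chains closed with exact 95% intervals; the share stays between 17 and 26% up to 800 kb and is 3.09% at 2000 kb and over.

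Closed chains had stronger legs than open ones. Legs of closed chains had a median strength of 4.02 (A-B) and 4.02 (B-C), against 3.43 and 3.45 for legs of open chains. At 200 to 500 kb the weaker leg had a median of 31 contacts in closed chains, against 26 in open ones, and at 100 to 200 kb 44 against 35. All chains were also put in 4 groups of equal number by the span-adjusted strength of their weaker leg. In the weakest group 13.8% were closed, in the next 14.8%, then 18.5%, and in the strongest group 28.8%. From 100 kb to 1 Mb closure was higher with each stronger group within every distance class. For chains of 200 to 500 kb it was 34.6% in the strongest group and 16.3% in the weakest, and for those of 100 to 200 kb it was 31.0% and 10.4%. For chains of 1 to 2 Mb it was 15.0% in the strongest group (122 of 811) and 137 of 1248 were closed in the weakest. Beyond 2 Mb it was 1.99% in the strongest group and 3.73% in the weakest, with 3 and 6 closed chains. Legs of 10 kb anchors closed less often: 21.9% of chains with both legs at 5 kb were closed, 11.6% of mixed ones and 9.67% with both legs at 10 kb. These chains were also longer, with median distances of 340, 647.5 and 850 kb.

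**Figure D3:**
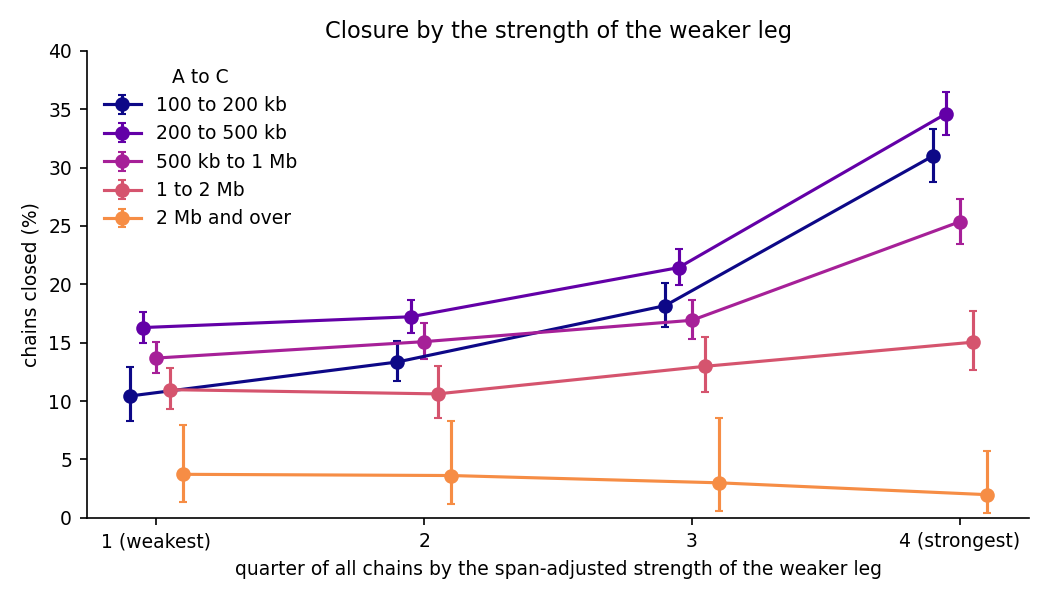
Percent of chains closed (vertical axis, exact 95% intervals) in 4 groups of equal number by the span-adjusted strength of their weaker leg, for 5 classes of distance from A to C. For chains of 200 to 500 kb the share is 34.6% in the strongest group and 16.3% in the weakest, and beyond 2 Mb it is 3.73% or less in every group.

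Some open chains were near misses of the overlap rule. In 2052 of the 24891 open chains (8.24%) a loop joined positions within 10 kb of A and of C, and within 25 kb this held for 4113 (16.5%). Counting these as closed, 25.6% and 32.4% of chains would be closed. The 1904 different loops within 10 kb of a missing A-C side had a median strength of 4.67 and 28 contacts. The 5183 different A-C loops of triangles had 5.05 and 31. Even at 25 kb, 20778 chains (67.6%) had no loop near A-C.

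Anchors with many loops were nearly always in a triangle, but a smaller share of their loop pairs was closed. Of anchors with 2 loops 2285 of 9936 were a corner, of those with 3 or 4 loops 53.8%, with 5 to 7 loops 81.0%, and with 8 or more loops 94.8% (363 of 383). Chains that run across an anchor were closed in 26.6% of cases at anchors with 2 loops, 23.9% with 3 or 4, 16.4% with 5 to 7 and 9.52% with 8 or more (451 of 4737, interval 8.70 to 10.4%). Pairs of loops that leave an anchor to the same side were closed in 21.2%, 19.5%, 16.9% and 14.7% of cases (interval of the last 14.0 to 15.4%). At anchors with 2 loops, chains across were thus closed more often than pairs to the same side, and at anchors with 8 or more loops less often. The closing loop of a chain is longer than its legs and that of a same-side pair may be short, and the part of distance in this was not tested.

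Of triangle corners 40.1% were 10 kb wide, against 25.3% of all merged anchors. Such an anchor can pool the loops of neighbouring 5 kb bins, and most of the 10 corners in most triangles were 10 kb wide. The part of anchor width in their numbers of loops and triangles was not tested. Among these 10 corners, an anchor on chromosome 6 at 27860001 to 27870000 was in 21 triangles, and was the upper end C in 20 of them. Of its 105 pairs of downward loops 20 were closed, against 1 of its 45 chains to the 3 upward loops. On chromosome 5 the anchor at 124070001 to 124080000 was in 19 triangles. It closed 10 of 21 upward and 6 of 21 downward pairs, but 3 of the 49 chains across it. The anchor at 87970001 to 87980000 on the same chromosome had 9 loops, all downward, and was the upper end of 12 triangles.

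Not every such anchor was one-sided in its triangles. The anchor on chromosome 15 at 74830001 to 74840000 was the middle of 7 of its 14 triangles, and that on chromosome 5 at 124530001 to 124540000 the middle of 7 of 16. On chromosome 10, 104260001 to 104270000 was in 13 triangles, 6 as the middle and 6 as the upper end. On chromosome 1, 197885001 to 197890000 was in 12, with 4 in each place. On chromosome 2, 66660001 to 66665000 was in 12, and was the lower end A in 9 of them. The remaining corners of the 10 were a pair on chromosome 5, at 124250001 to 124260000 with 13 triangles and at 124740001 to 124750000 with 14.

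Among open chains, the 5 middle anchors with the most legs, each 10 kb wide, closed 0 to 9.26% of their chains. The share over all anchors with 8 or more loops was 9.52% (451 of 4737), so low closure was common to anchors with many loops. Apart from those on chromosomes 6 and 5 already given, the anchor on chromosome 2 at 222430001 to 222440000, with 12 loops down and 3 up, closed 1 of 36 chains. That on chromosome 15 at 75740001 to 75750000 closed 5 of 54. The anchor on chromosome 6 at 139690001 to 139700000, with 1 loop down and 13 up, closed 0 of 13. Were the chains independent, this would allow a share of up to 23.1% (3 chains of 13). All 13 share the single downward loop, so they are not independent and the limit is too narrow. The median distance from A to C over the open chains of these 5 anchors was 710 to 1356 kb.

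The open chain with the highest count on its weaker leg lay on chromosome 15, in a stretch of higher contact counts described below (62 to 88 Mb). It joined 64970001 to 64980000 with 65020001 to 65025000 by 297 contacts, and that anchor with 65100001 to 65105000 by 352 contacts, with no loop within 25 kb of the outer side. The next, on chromosome 6, had 190 and 225 contacts (26020001 to 26030000, 26120001 to 26130000 and 26150001 to 26160000), the leg of 190 called with 10 kb anchors. On chromosome 19 (46110001 to 46115000, 46140001 to 46150000 and 46190001 to 46200000) the legs had 195 and 175 contacts, the leg of 175 called with 10 kb anchors. On chromosome 10 (103360001 to 103365000, 103540001 to 103545000 and 103570001 to 103580000) they had 205 and 142. A loop 12.5 kb off the missing side was listed for the chain on chromosome 1 (154930001 to 154935000, 154970001 to 154975000 and 155020001 to 155025000), whose legs had 152 and 180 contacts. Legs with many contacts did not always come with a called outer loop.

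Many triangles hung together. Of the 5826, 1467 (25.2%) shared no loop with another triangle, and the rest were linked through shared loops, giving 2571 groups in all. They were also gathered along the chromosomes: 376 windows of 1 Mb, 13.4% of the 2797 windows with a loop centre, held 50% of the triangles. The window with the most triangles (chromosome 5, 124 to 125 Mb) held 32 of them and 54 loops. The share of all loops in the 376 windows was not computed, and the part of loop density in this was not tested. The largest group lay on chromosome 5 between 123140001 and 125450000, with 37 triangles made from 49 loops among 21 anchors. It was followed by 31 triangles on chromosome 15 (72520001 to 76035000, 44 loops) and 31 on chromosome 19 (36630001 to 38275000, 45 loops). Then came 24 on chromosome 6 (27120001 to 27870000, 27 loops among 11 anchors) and 21 on chromosome 5 (86705001 to 87980000, 24 loops). As background from general knowledge, and not from an annotation of this build, the chromosome 6 stretch belongs to the largest human cluster of replication-dependent histone genes, and the long arm of chromosome 19 is known for clusters of zinc finger genes.

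Some triangles fitted into larger sets in which every anchor was joined to every other. There were 389 sets of 4 such anchors, which held 1344 triangles (23.1%), 12 sets of 5, each with 10 loops, and 0 sets of 6. Of the 12, 3 lay on chromosome 4, 3 on chromosome 5, 3 on chromosome 6 and 1 each on chromosomes 9, 15 and 20. Their reach from first to last anchor was 237.5 kb on chromosome 20 and up to 1180 kb on chromosome 15.

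On chromosome 4 a set joined 15480001 to 15485000, 15805001 to 15810000, 15880001 to 15885000, 15955001 to 15960000 and 16260001 to 16270000. Its 10 loops had 13 to 103 contacts and strengths of 3.98 to 10.8, and the outermost loop, over 782.5 kb, had 13 contacts. A pair of sets further along chromosome 4 shared 4 anchors (139100001 to 139110000, 139490001 to 139500000, 139600001 to 139610000 and 139790001 to 139800000). They differed in the lowest anchor, 138740001 to 138750000 or 138955001 to 138960000. On chromosome 5, a set from 87240001 to 87980000 had a highest strength of 11.3 over its loops and another, from 90160001 to 90720000, had 23 to 132 contacts per loop.

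A pair of sets on chromosomes 20 and 6 is described here after their values were seen. The chromosome 20 set was the most compact, with anchors from 52290001 to 52535000, and had the highest median count of the 12, with 48 to 209 contacts per loop and strengths of 2.07 to 5.14. Its loops of 209 and 141 contacts, with strengths of 2.68 and 2.07, were called with 10 kb anchors. On chromosome 6, 4 anchors between 26050001 and 26200000 were all joined to each other and to another at 27100001 to 27105000. The 4 long loops over about 1 Mb had 21, 26, 43 and 45 contacts, with strengths of 7.35, 10.2, 9.44 and 10.6, and the 6 short loops had strengths of 2.41 to 8.10, the lowest of them called with 10 kb anchors. On the span-adjusted log2 scale the long loops stood at -0.14, 0.33, 0.22 and 0.67, and the short loops between 0.09 and 1.79.

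**Figure D4:**
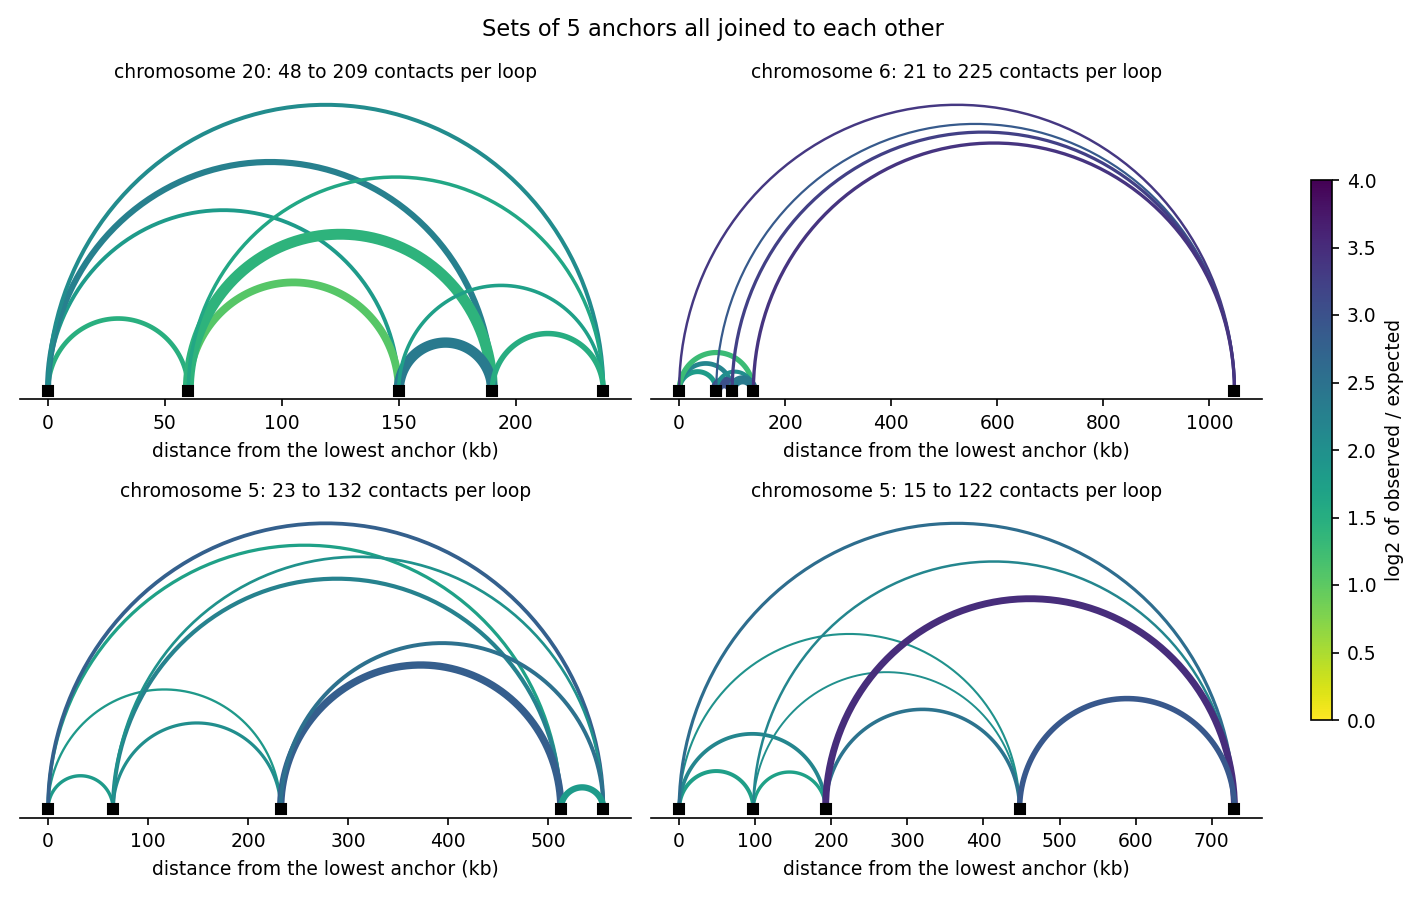
Of the sets of 5 anchors, 3 with the highest median contact counts and 1 of a pair tied for the next place (median 48, the other on chromosome 6), chosen after the values were seen: squares are anchors by distance from the lowest one (kb), arcs are loops, arc width follows observed contacts and colour log2 strength. Each set has all 10 loops; contacts per loop run from 48 to 209 on chromosome 20, from 21 to 225 on chromosome 6, and from 23 to 132 and 15 to 122 on chromosome 5. The loops of 209 and 141 contacts on chromosome 20 and of 86 on chromosome 6 were called with 10 kb anchors.

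The chromosomes covered a narrower range in the share of loops than in the number per Mb. The share of loops in a triangle was highest on chromosome 15 (32.7%, interval 30.4 to 35.1%) and lowest on chromosome 22 (23.3%, interval 20.1 to 26.7%). Triangles per covered Mb ran from 3.49 on chromosome 19 and 2.94 on chromosome 15 to 1.27 on chromosome 21, against 1.99 over all chromosomes. Chromosome 19, with the most triangles per Mb, had the smallest share of chains closed (15.3%, interval 13.4 to 17.3%), and chromosome 20 the largest (21.4%, interval 18.1 to 25.0%).

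Chromosome 15 carries a stretch from 62 to 88 Mb with higher contact counts than its surroundings. Loops inside had a median of 47 contacts, against 31 on the rest of the chromosome, and 44.3% of them were in a triangle (interval 40.6 to 48.2%), against 23.5% (20.8 to 26.5%). Closure was 19.0% of 801 chains inside and 16.7% of 491 on the rest, with overlapping intervals (16.3 to 21.9% and 13.5 to 20.3%). The A-C loops had a median of 522.5 kb inside and 397.5 kb on the rest. Contact depth moved with these values, and its part in them was not tested. The chromosome 15 group of 31 triangles and the named anchors at 74830001 and 75740001 lie in this stretch. So do the open chain of highest count and the chromosome 15 triangles named below.

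**Figure D5:**
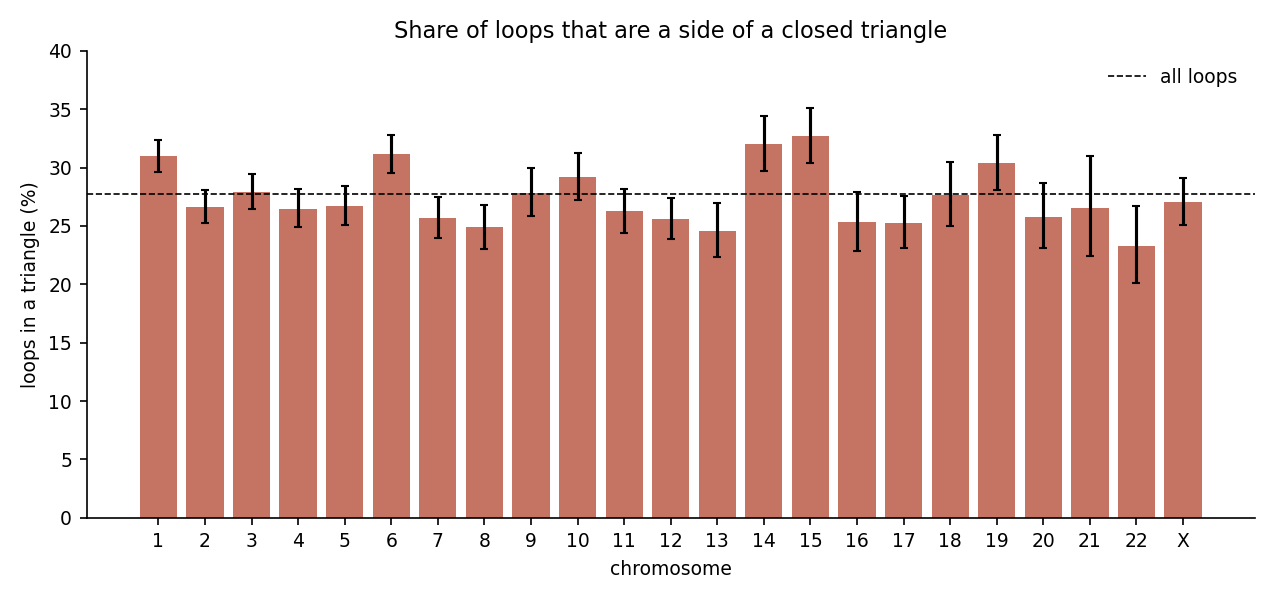
Percent of loops that are a side of a closed triangle (vertical axis) for each chromosome, with exact 95% intervals; the dashed line is the share over all loops, 27.7%. Chromosome 15 is highest at 32.7% and chromosome 22 lowest at 23.3%.

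The longest triangles rested on few contacts. In all but the one on chromosome 5, sides called with 5 kb and with 10 kb anchors were mixed. Their counts are therefore not on the same footing. The A-C loop had 10 kb anchors on chromosome 10 and in both triangles on chromosome 15. The A-B leg had them on chromosome 7 and in the 3220 kb triangle. On chromosome 10 the anchors 65800001 to 65810000, 68680001 to 68690000 and 69280001 to 69290000 were joined by an A-C loop of 3480 kb with 20 contacts (exact Poisson 95% interval 12.2 to 30.9). Its legs had 27 contacts (A-B, 2885 kb) and 29 (B-C). The 3220 kb triangle on chromosome 15 (72520001 to 72530000, 74830001 to 74840000 and 75740001 to 75750000) had 16 contacts on A-C, against 13 on A-B and 13 on B-C. Another on chromosome 15 (3080 kb, from 68570001 to 71660000) had 14 contacts on A-C, against 14 and 10. On chromosome 7 (3125 kb, from 108250001 to 111380000) the A-C loop had 11 contacts, against 27 and 15. On chromosome 5 (3085 kb, from 159845001 to 162940000) both long sides had 17 contacts and ended at anchors 45 kb apart, joined by 169 contacts.

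The shortest triangles had the shortest legs that the list allows, 35 kb. On chromosomes 9 and 3 the legs ended in different 5 kb bins of a merged 10 kb middle anchor. These legs overlapped, and the A-C loop spanned 65 kb. On chromosome 9 the anchors 36100001 to 36105000, 36130001 to 36140000 and 36165001 to 36170000 had 124 contacts on the 65 kb A-C loop, against 66 and 53 on the legs, so that the longest side had the most contacts (intervals 103 to 148, 51.0 to 84.0 and 39.7 to 69.3). On chromosome 3 (114100001 to 114105000, 114130001 to 114140000 and 114165001 to 114170000) the counts were 82 on A-C, against 132 and 80. The other 3 lay on chromosome 1 (a pair, from 16140001 and from 64930001) and on chromosome 2 (from 140235001), with 77, 95 and 44 contacts on the 70 kb A-C loops.

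Some triangles had high counts on every side. On chromosome 5 the anchors 81045001 to 81050000, 81080001 to 81085000 and 81140001 to 81150000 had 333 contacts on A-C, against 223 on A-B and 373 on B-C. The strengths were 19.1 on A-C, against 7.66 and 16.4. Chromosome 17 held a pair of such triangles that share the loop from 8020001 to 8030000 to 8090001 to 8100000, with 196 contacts. It was the A-C loop over an anchor at 8050001 to 8060000, with legs of 161 and 140 contacts. It was also the A-B leg of the triangle that ends at 8120001 to 8130000, with 195 contacts on A-C and 271 on B-C. On chromosome 15 (74750001 to 74760000, 74830001 to 74840000 and 74905001 to 74910000) the counts were 151 on A-C, against 183 and 191. On chromosome 20 (52350001 to 52360000, 52440001 to 52450000 and 52480001 to 52490000) they were 209 on A-C, against 141 and 197, the A-C and A-B loops being called with 10 kb anchors.

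The 5 triangles whose weakest side had the highest strength had A-C spans of 215 to 1895 kb. The highest weakest side, at 14.4, belonged to a triangle on chromosome 21 (28220001 to 28230000, 29070001 to 29075000 and 30110001 to 30120000). Its A-C loop, over 1895 kb, had 53 contacts and a strength of 21.3, against 68 and 29.1 on A-B and 22 and 14.4 on B-C. On chromosome 2 (176990001 to 176995000, 177515001 to 177520000 and 178010001 to 178015000) the middle anchor split 1020 kb nearly evenly. The A-C loop had 54 contacts (strength 18.7), against 102 (14.3) and 82 (14.4). Chromosome 7 held a pair of triangles that share the leg from 25605001 to 25610000 to 25890001 to 25900000 (113 contacts, strength 14.1). Their lowest anchors were 25295001 to 25300000 and 25430001 to 25435000, and their A-C strengths were 12.9 and 12.9. The last of the 5 lay on chromosome 1 (203240001 to 203250000, 203305001 to 203310000 and 203455001 to 203460000), with 111 contacts and a strength of 11.2 on A-C, against 256 (12.4) and 121 (11.4).

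At the extremes the outer loop stood far above or far below its legs. On chromosome 16 the anchors 10350001 to 10355000, 10480001 to 10490000 and 10600001 to 10610000 had 77 contacts on A-C (exact Poisson 95% interval 60.8 to 96.2), against 17 (9.90 to 27.2) and 40 (28.6 to 54.5) on the legs. The A-C strength was 23.9, against 3.90 and 2.24, 8.08 times the mean of the legs. That same loop was a leg of the triangle with nearly the lowest value: continued to 10830001 to 10840000 by a loop of 138 contacts (strength 23.7), it was closed by an A-C loop of 15 contacts and a strength of 5.71. The outer loop of the second triangle was thus 0.240 times as strong as its legs. The positions 10350001, 10600001 and 10830001 formed a chain of strong loops with a weak outer one, and 10480001 lay within its first loop, its upper leg called with 10 kb anchors.

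The other triangles with a high outer loop were on chromosome 17 (5490001 to 5500000, 5970001 to 5980000 and 6320001 to 6330000), chromosome 12 (32900001 to 32910000, 33740001 to 33750000 and 34170001 to 34180000), X (99940001 to 99945000, 99985001 to 99990000 and 100020001 to 100025000) and chromosome 3 (176910001 to 176920000, 177000001 to 177005000 and 177070001 to 177080000). Their A-C strengths were 17.3, 19.8, 18.5 and 19.6, which is 6.60 to 7.30 times the mean of the legs. On chromosomes 17 and 12 both legs had been called with 10 kb anchors and the A-C loop with 5 kb anchors. On X and chromosome 3 every side had 5 kb anchors, with 256 contacts on A-C against 62 and 55 on X, and 285 against 29 and 50 on chromosome 3.

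The lowest outer loop against its legs was on chromosome 9 (124300001 to 124310000, 124885001 to 124890000 and 125110001 to 125120000), with 20 contacts on A-C, called with 10 kb anchors, against 35 and 272. Its strength was 2.92, or 0.220 times the mean of the legs. A triangle on chromosome 1 (91180001 to 91190000, 91630001 to 91635000 and 91740001 to 91750000) also had an A-C loop of 10 kb anchors, with a strength of 2.82, against 8.90 and 14.9. With 5 kb anchors on every side, the A-C loop had 16 contacts against 148 and 113 on chromosome 1 (29110001 to 29115000, 29200001 to 29210000 and 29360001 to 29365000). It had 15 against 80 and 176 on chromosome 10 (61000001 to 61010000, 61380001 to 61390000 and 61560001 to 61570000). In these a strong pair of neighbouring loops was closed by an outer loop of 15 to 32 contacts, where the least counted loop of the list had 8.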

How the data were processed

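Micro-C was measured in 6 replicates of HAP1 cells. The authors deposited 1 loop list over all of them, made with juicer_tools version 1.22.01, per the file headers, whose columns are those of the HiCCUPS caller. BWA and hg19 are named in the submitters' processing notes. How replicates were pooled, their depths and the caller's settings: not given in the sources used here. Deposited per loop are observed contacts (raw whole counts), merged pixels (also counts), 4 expected contact values on the count scale and a q-value against each. Observed counts ranged from 8 upward.

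Triangles were found with pandas 2.3.3 and numpy 2.4.6 under Python 3.11.15, and sets of joined anchors and groups of linked triangles with networkx 3.6.1. Intervals were computed with scipy 1.17.1 and plots drawn with matplotlib 3.10.9. After anchors overlapping by at least 1 bp were merged, no pair of anchors had more than 1 loop, and no merged anchor was wider than 10 kb. A 10 kb anchor thereby joins neighbouring 5 kb bins that do not overlap each other. Span is the distance between anchor midpoints, and strength is observed over donut expected. Span-adjusted strength is log2 strength minus the median of loops of the same anchor width in 30 span bins of equal count. A share of 0 has a limit of 3 counts of the total, and other shares carry exact binomial 95% intervals (Clopper-Pearson) and medians order-statistic intervals. They cover counting error only, and triangles share loops. No test was run: the list has 1 group, and called loops chose the members. The functions were tested on simulated lists with planted triangles.

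Named triangles were those with the 5 longest and 5 shortest A-C loops, the 5 with the highest count and the 5 with the highest ratio on the weakest side, and the 5 with the highest and lowest A-C strength over that of the legs (ratios only where every expectation was at least 1). The 10 anchors in most triangles, 5 of the 12 sets of 5 joined anchors (equal in size, taken by lower chromosome and start), 5 open chains and 5 middle anchors were added. Members and rules were chosen with earlier results of these data known, as was the chromosome 15 stretch. Coordinates are hg19, 1-based. No annotation of hg19 was used, so no gene is assigned and no sequence printed.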

Additional observations from a re-analysis of the deposited data

How the results depend on the processing

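Of 91 alternative values, under 15 settings, 31 stayed close to the reported value, 59 moved and 1 reversed. The setting that keeps the loop with the highest ratio for a pair of anchors could not change any value. No pair of anchors had more than 1 loop. The values of that setting are counted among the 31 and say nothing on how stable the results are. The settings without short legs and with unshared triangles were chosen after seeing the data. The reported values are 5826 triangles, 19.0% of chains closed, 27.7% of loops in a triangle, a median A-C span of 360 kb, a log2 ratio of A-C to legs of 0.29, A-C the weakest side in 17.1%, and a span-adjusted A-C strength of 0.07. With identical anchors these were 3823, 17.8%, 19.4%, 310 kb, 0.33, 11.3% and 0.11. With anchors within 5 kb they were 11799, 24.4%, 48.4%, 370 kb, 0.27, 19.3% and 0.047, and within 10 kb 14302, 25.5%, 55.8%, 370 kb, 0.26, 19.8% and 0.036. With 5 kb loops alone they were 3808, 18.4%, 22.7%, 310 kb, 0.33, 11.3% and 0.11, and with 10 kb loops alone 15, 1.86%, 0.631%, 770 kb, 0.39, 13.3% and 0.14. With all q-values at most 0.1 they were 3785, 20.7%, 26.2%, 330 kb, 0.32, 13.7% and 0.0030. With at least 20 contacts per loop, 25.4% of loops were in a triangle, the span was 280 kb, the log2 ratio 0.32, A-C the weakest in 15.4%, and the span-adjusted strength turned to -0.0013. With at least 2 merged pixels, 17.8% of chains were closed and 23.8% of loops were in a triangle. The lower-left expectation gave 0.35, 14.6% and 0.10 for the log2 ratio, the weakest side and the adjusted strength, and the largest of the 4 expectations 0.21, 20.4% and 0.037. Without legs of at most 50 kb, 20.1% of chains were closed, 22.1% of loops were in a triangle and the span was 430 kb. Triangles that share no loop had 285 kb, 0.36, 15.4% and 0.14. Fewer loops or another reading of a shared anchor change the counts by construction, and the cause of the other shifts was not tested. The median A-C loop was above its legs by ratio in each setting, though with 10 kb loops alone the interval of the 15 triangles ran from -0.0083 to 0.57, whereas its span-adjusted strength was at 0 or near it in several. No paired analysis was possible because the replicates are pooled in 1 list, and leaving out a replicate was not possible for the same reason. No listed loop had under 8 contacts, and how far depth limited the calling of A-C loops was not tested.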

Other observations

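The sides of a triangle moved together to an unequal degree. Across the 5826 triangles the span-adjusted strength of A-C correlated with that of A-B (Spearman's rho 0.23) and of B-C (0.25), while A-B and B-C, which lie on either side of the middle anchor, had a rho of 0.06. Pairs of loops leaving an anchor to the same side whose remaining side was not called had 0.18 (25993 pairs at a lower anchor) and 0.19 (26903 pairs at an upper anchor). The legs of 24891 open chains had 0.06. All of these pairs share an anchor, many share loops with other pairs, and all come from the same pooled map, so the values are a description.

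The lower and upper leg were alike. A-B was stronger than B-C in 2949 triangles (50.6%), and by contacts in 2835 (48.7%). All 3 sides stood above the median of loops of like span in 1487 triangles (25.5%), and all 3 at or below it in 628 (10.8%). Of 9623 middle anchors, 1179 had every chain closed, 865 of them with a single chain. These 865 were 26.6% of the 3251 middle anchors with 1 chain. At 200 middle anchors with 9 or more chains 0 of them were closed. Closure was low in that class as a whole, at 10.9% of its chains (869 of 7987).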
